A study of Mus musculus with 6 samples.

Results

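The comparison described here was between mouse podocytes (MPCs) kept in high glucose (HG) alone and the same cells given recombinant wild-type FGF1 (rFGF1WT) before HG, at the 10548 of 24469 loci in the expression table whose mean FPKM over the 4 libraries reached 1. FPKM are fragments scaled to transcript length and to the mapped fragments of the library. MPCs are a conditionally immortalized line that grows at a permissive temperature with interferon gamma and differentiates when interferon gamma is withdrawn. In all groups the cells were differentiated for 10 days, starved without serum for 12 h and then held in 25 mM glucose for 12 h, after growth in 5.5 mM glucose. The HG group (2 libraries) received no protein. No pretreatment is given for it, and whether it had a mock step is not stated. An effect of the pretreatment step itself therefore cannot be told apart from that of the protein. The rFGF1WT group (2 libraries) was pretreated with 100 ng/mL rFGF1WT for 1 h. Another group of 2 libraries, pretreated with 100 ng/mL of the partial agonist rFGF1ΔHBS, enters below through the shared estimate of spread and where the 2 proteins are compared. Libraries in normal glucose were not analysed here. All libraries came from 1 cell line, and nothing in the labels says that the 2 libraries of a group came from separate cultures, so p-values measure the spread between these libraries, which may be technical.

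FGF1 is a secreted ligand that binds all FGF receptors together with heparan sulfate. The active receptor phosphorylates the adaptor FRS2, which feeds the RAS-ERK kinase cascade and the PI3K-AKT pathway. ERK raises transcription of ETS factors of the PEA3 group, D-type cyclins and its own inhibitors, the Sprouty proteins and MAP kinase phosphatases. AKT holds FOXO factors outside the nucleus and favours survival and anabolism.

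Summed FPKM were 179594 to 185168 per library, and 10347 to 10449 loci reached 1 FPKM in each of the 4 libraries. FPKM hold no read totals, but the lowest values of single-exon genes clustered on one step (71.9% to 77.1% of 250 to 271 values per library within 4% of it), from which the depths of the 4 libraries were 0.973 to 1.0 of that of the first HG library. The log2(FPKM + 1) values of the 10548 loci, which share their libraries and are no replicates, gave a Pearson correlation of 0.918 for the pair of HG libraries and 0.915 for the pair of rFGF1WT libraries, and 0.894 to 0.909 for pairs across the groups. Replicates lay within a median of 0.0992 (HG) and 0.0987 (rFGF1WT) of each other on the log2 scale, yet 541 loci (5.13%) under HG and 545 (5.17%) with rFGF1WT differed at least 2-fold between replicates. *Jun*, for example, had 1.95 and 19.2 against 17.6 and 2.44 FPKM, and *Smad3*, the TGF-beta effector, had 13.2 and 42.7 against 42.6 and 14.2 FPKM. At both loci the groups overlapped.

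The podocyte label was checked against its markers. Of 25 podocyte markers, 11 were fitted, 13 were below a mean of 1 FPKM and 1 was not analysed here. The podocyte transcription factor *Wt1* reached at most 0.0731 FPKM and was nearly 0 in all 4 libraries. Nephrin (*Nphs1*) lay between 0.77 and 0.942 FPKM. Synaptopodin (*Synpo*) had 9.58 and 10.2 against 5.45 and 4.01 FPKM (adjusted p = 0.0785), and podocalyxin (*Podxl*) had 16.6 and 17.6 against 15.8 and 15.4 FPKM (adjusted p = 0.305). The tubule markers *Cdh16*, a kidney cadherin, at 85.0 and 96.2 against 71.4 and 70.9 FPKM, and *Lrp2* (megalin), at 28.5 and 26.9 against 22.9 and 22.1 FPKM, were abundant, but of the 9 tubule markers 3 were fitted, 4 were below 1 FPKM and 2 were not analysed here. With *Aqp1* the 3 fitted tubule markers summed to 158.4 and 157.8 against 115.5 and 118.4 FPKM. All 3 had a negative log2 fold change and an unadjusted p under 0.05 in limma, and 0 were called. Likewise 6 of 7 endothelial, 4 of 7 mesangial and 6 of 9 macrophage markers were below 1 FPKM. Of the 3 fitted mesangial markers 0 were called, and 3 had an unadjusted p under 0.05. *Wt1* was thus near 0, and most podocyte markers were below 1 FPKM, in both groups.

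With rFGF1WT, 653 of the 10548 loci (6.19%) had an adjusted p under 0.05 and are called changed here, 343 of them higher (3.25%) and 310 lower (2.94%). Of these, 107 (1.01%) also changed at least 2-fold on the log2(FPKM + 1) scale, 55 of them higher (0.521%) and 52 lower (0.493%). The log2(FPKM + 1) scale understates the change of genes with few FPKM. The libraries of the 2 groups did not overlap at 58.3% of all loci. Values were tested with limma in one fit of the 3 groups with 3 residual degrees of freedom. A fit of only the 4 libraries compared called 175 loci (1.66%) and kept 140 of the 653 and 76 of the 107. Its log2 fold changes equal those of the main fit by construction, so no direction could change. The 4-library fit has 2 residual degrees of freedom and takes no spread from the rFGF1ΔHBS libraries. Which of these lowered the number of calls was not tested. The adjusted p of the 4-library fit is given below for the leading genes. Called loci had a median mean FPKM of 14.9 (higher) and 9.08 (lower), against 7.92 for all fitted loci. The median log2 fold change was -0.0416 over all fitted loci, and it moved by 0.0372 when libraries were scaled by median ratios. Log2 fold changes were positive at 4588 and negative at 5960 fitted loci, and sign counts of the lists below stand beside these.

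**Figure D1:**
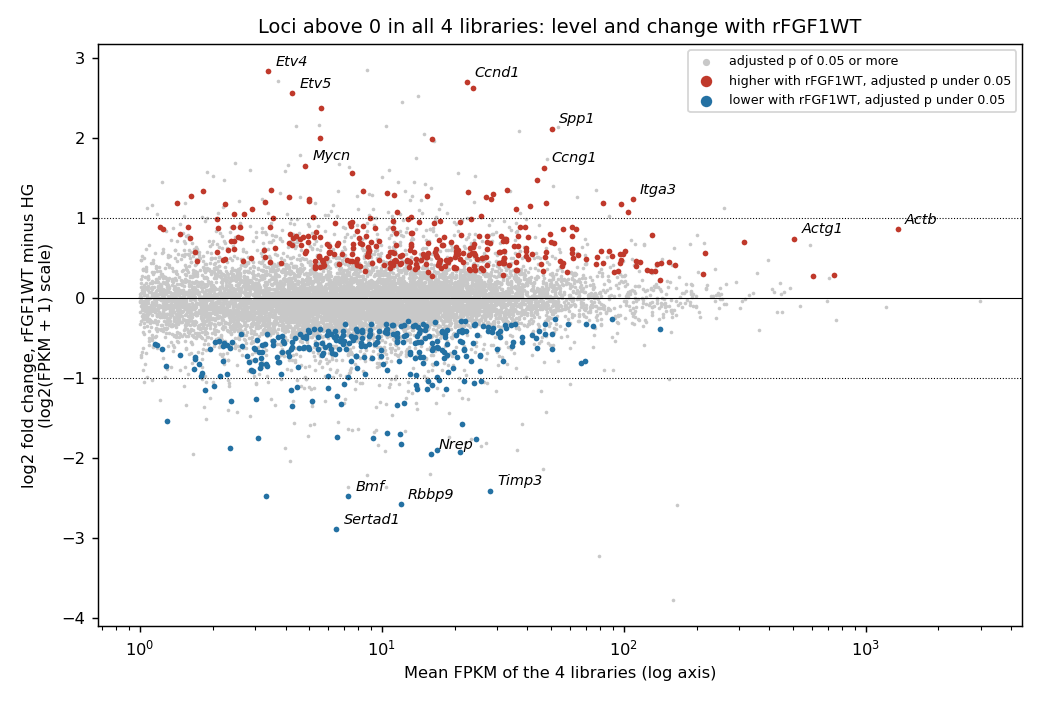
Log2 fold change between rFGF1WT and HG (y axis, on the log2(FPKM + 1) scale) against the mean FPKM of the 4 libraries (x axis, log scale) for the loci above 0 in all 4. Each point is 1 locus, red and blue points have an adjusted p under 0.05, and dotted lines mark 2-fold. Among called loci *Etv4*, *Ccnd1* and the unnamed locus MSTRG.7636 lie highest and *Sertad1*, *Rbbp9* and *Bmf* lowest. Grey points beyond the dotted lines are loci that were not called. Their error also holds the spread of the rFGF1ΔHBS libraries, which are not plotted.

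Among the 12 largest called increases were 2 PEA3-group ETS factors, 2 D-type cyclins and a MYC family member. *Etv4* (chr11:101769742-101785371 in GRCm38), a PEA3-group transcription factor, had 0.0580 and 0.0786 FPKM under HG and 8.03 and 5.42 FPKM with rFGF1WT (log2 fold change 2.83, standard error 0.18, adjusted p = 0.00990). It was close to undetected in both HG libraries. Its relative *Etv5* (chr16:22381309-22439719) had 0.486 and 0.578 FPKM under HG and 7.72 and 8.31 FPKM with rFGF1WT (log2 fold change 2.56, standard error 0.07, adjusted p = 0.00155). *Ccnd1* (chr7:144929931-144939925), which encodes cyclin D1, the partner of CDK4 and CDK6 in G1, had 5.53 and 5.05 FPKM under HG and 40.2 and 39.5 FPKM with rFGF1WT (log2 fold change 2.70, standard error 0.07, adjusted p = 0.00144). *Ccnd2*, cyclin D2, had 3.33 and 3.27 FPKM under HG and 12.1 and 11.3 FPKM with rFGF1WT (adjusted p = 0.00344). The library values of each of these 4 genes did not overlap between groups, as at 58.3% of all loci. All 4 also passed in the 4-library fit (adjusted p = 0.0418, 0.0175, 0.0102 and 0.0213).

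*Spp1* (chr5:104435118-104441050), which encodes the secreted matrix protein osteopontin and shares its locus with Gm42793, had 18.7 and 17.8 FPKM under HG and 83.4 and 81.8 FPKM with rFGF1WT (log2 fold change 2.12, standard error 0.05, adjusted p = 0.00101). *Mycn* (N-MYC) had 1.82 and 1.80 FPKM under HG and 7.87 and 7.82 FPKM with rFGF1WT (adjusted p = 0.00642). *Ccng1*, cyclin G1, a p53 target, had 23.2 and 21.5 FPKM under HG and 75.3 and 67.4 FPKM with rFGF1WT (adjusted p = 0.00483). These 3 loci were about equally high in both treated libraries. *Txnrd3*, a thioredoxin reductase, had 5.93 and 5.82 against 27.9 and 24.7 FPKM (adjusted p = 0.00344), and *F2rl1*, the protease-activated receptor PAR2, had 23.4 and 22.0 against 64.8 and 64.9 FPKM (adjusted p = 0.00344). An unnamed assembled locus, MSTRG.7636, had 6.54 and 5.31 against 40.2 and 43.3 FPKM (adjusted p = 0.00344). The other 2 of the 12 were less even under HG. *Rpp25l*, a relative of an RNase P subunit, had 0.681 and 1.70 against 10.4 and 9.65 FPKM (adjusted p = 0.0244), and *Zfp704*, a zinc finger gene, had 1.01 and 2.36 against 9.51 and 9.26 FPKM (adjusted p = 0.0293). Neither passed in the 4-library fit (adjusted p = 0.0604 and 0.0822), whereas the other 10 increases did.

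The 12 largest called decreases were led by *Sertad1*, which encodes a CDK4-binding regulator, with 11.2 and 12.9 FPKM under HG and 1.84 and 0.0829 FPKM with rFGF1WT (log2 fold change -2.89, standard error 0.48, adjusted p = 0.0486). Its 2 treated libraries differed from each other by far more than its HG libraries, and the 4-library fit gave an adjusted p of 0.106. *Rbbp9* (chr2:144542265-144550869), an RB-binding serine hydrolase, had 20.7 and 21.7 FPKM under HG and 2.54 and 2.92 FPKM with rFGF1WT (log2 fold change -2.57, standard error 0.07, adjusted p = 0.00155). *Bmf* (chr2:118528757-118549687), a BH3-only protein that promotes apoptosis, had 13.6 and 12.5 FPKM under HG and 1.37 and 1.65 FPKM with rFGF1WT (log2 fold change -2.48, standard error 0.10, adjusted p = 0.00344). The merged locus of *Olfr56* and *Ifi47*, the latter an interferon-inducible GTPase, had 6.40 and 6.27 against 0.139 and 0.518 FPKM (adjusted p = 0.0143). *Timp3* (chr10:86300372-86349506), the matrix-bound inhibitor of metalloproteinases, had 48.1 and 47.5 FPKM under HG and 8.13 and 8.21 FPKM with rFGF1WT (log2 fold change -2.41, standard error 0.04, adjusted p = 0.000508). Replicates of *Timp3* were nearly equal in both groups, and its adjusted p was the smallest of the 12.

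*Nrep*, a neuronal regeneration-related gene, had 26.7 and 25.2 against 6.31 and 5.62 FPKM (adjusted p = 0.00344), and *Aif1l*, an actin-bundling protein, had 27.5 and 26.9 against 5.74 and 7.51 FPKM (adjusted p = 0.0112). *Mrpl43*, a mitochondrial ribosomal protein, had 40.1 and 37.0 against 10.6 and 10.7 FPKM (adjusted p = 0.00711). Both libraries of each group stood together for these 3 loci. *Nucks1*, a chromatin protein, had 32.3 and 35.6 against 9.47 and 7.03 FPKM (adjusted p = 0.0135, or 0.0501 with 4 libraries). *Chmp4c*, a subunit of the membrane-severing ESCRT-III complex, had 5.08 and 5.49 against 0.610 and 1.15 FPKM (adjusted p = 0.0167, or 0.0544). *Npr3*, the natriuretic peptide clearance receptor, had 24.4 and 14.6 against 4.75 and 4.52 FPKM (adjusted p = 0.0357, or 0.0857), and *Lrrc8d*, a volume-regulated anion channel subunit, had 2.87 and 5.78 against 0.443 and 0.342 FPKM (adjusted p = 0.0436, or 0.0965). The HG libraries of the last 2 were far apart, though above both treated libraries. Of the 12 decreases, 7 passed in the 4-library fit, and of all 24 named changes 17 did.

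**Figure D2:**
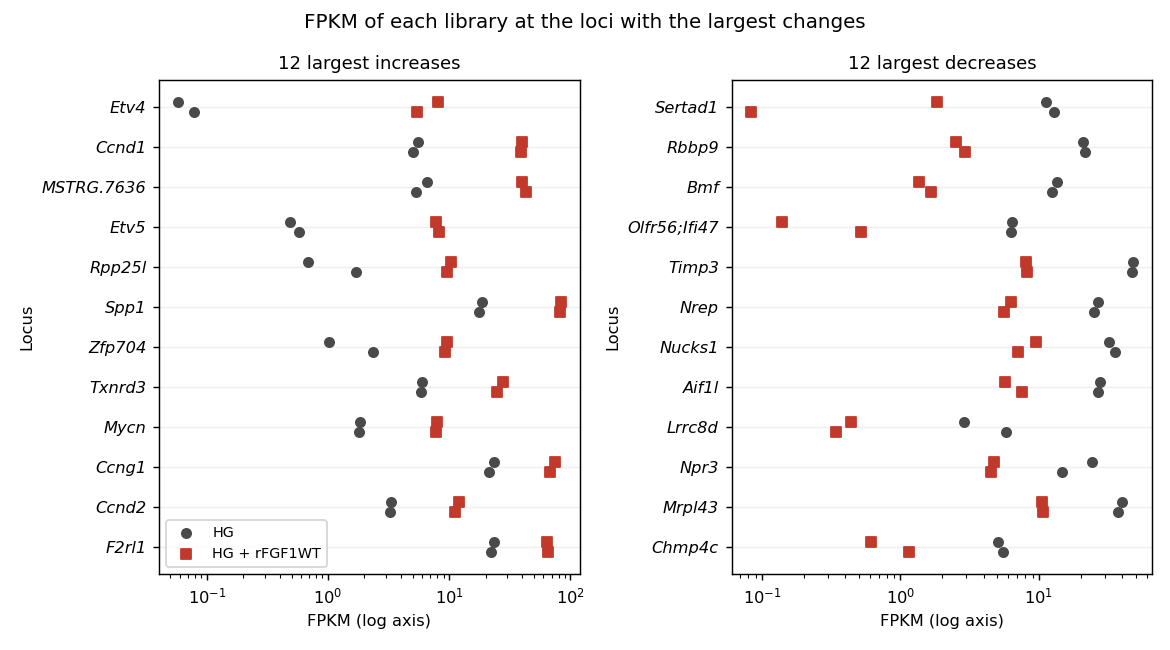
FPKM (x axis, log scale) of each HG library (grey circles) and each rFGF1WT library (red squares) at the 12 largest increases and the 12 largest decreases among called loci above 0 in all 4 libraries. The 2 groups do not overlap at any of the 24 loci, which were selected for their change, nor at 58.3% of all loci. The HG libraries of *Rpp25l*, *Zfp704* and *Lrrc8d* and the treated libraries of *Sertad1* and the merged *Olfr56* and *Ifi47* locus lie farthest apart.

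By absolute level, the largest called gains were in cytoskeletal actins. *Actb* (beta-actin) had 857 and 1078 FPKM under HG and 1788 and 1699 FPKM with rFGF1WT (log2 fold change 0.86, standard error 0.14, adjusted p = 0.0448), and *Actg1* (gamma-actin, in a locus merged with Gm23419) had 375 and 385 against 629 and 641 FPKM (adjusted p = 0.0130). *Actb* is often used as a reference gene, and here both treated libraries were above both HG libraries. The actin call was lost for *Actb* in the 4-library fit (adjusted p = 0.0887) and held for *Actg1* (0.0286). Gm12715, annotated as a processed pseudogene with 1 exon, had 238 and 241 against 376 and 401 FPKM (adjusted p = 0.0138). Whether reads of another gene entered its FPKM was not tested. *Fth1*, the ferritin heavy chain, had 685 and 653 against 825 and 809.8 FPKM (adjusted p = 0.0342), and *Scd2*, a fatty acid desaturase, had 561 and 533 against 659 and 664 FPKM (adjusted p = 0.0480). The largest losses in FPKM besides *Timp3* and *Mrpl43* were *Scpep1*, a serine carboxypeptidase (164 and 156 against 124 and 119 FPKM, adjusted p = 0.0287), *Adh7*, an alcohol and retinol dehydrogenase (91.2 and 83.9 against 48.3 and 52.2 FPKM, adjusted p = 0.0171), and *Rasl11a*, a RAS-like GTPase (86.4 and 83.5 against 46.3 and 49.3 FPKM, adjusted p = 0.0112). Of the 5 gains *Actg1* and Gm12715 were called with 4 libraries, and of the 5 losses *Timp3*, *Rasl11a* and *Mrpl43*.

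Of 19 ligands, receptors and adaptors of the FGF axis itself 10 were fitted, 1 rose and 1 fell (20.0% called, beside 6.19% of all loci). The 9 others were below 1 FPKM, among them the Klotho co-receptor genes *Kl* and *Klb* and the receptor *Fgfr4*. *Fgfr1* had 4.64 and 5.42 FPKM under HG and 5.87 and 5.90 FPKM with rFGF1WT and *Fgfr3* 6.21 and 6.65 against 4.38 and 4.80 FPKM (adjusted p = 0.263 and 0.0641). *Fgfr2*, in a locus merged with *Ctbp2*, had 11.1 and 12.3 against 6.54 and 6.56 FPKM (adjusted p = 0.0170), so that it cannot be said which of both genes the fall belongs to. *Fgf7*, a paracrine FGF, had 1.18 and 1.13 against 2.43 and 2.02 FPKM (adjusted p = 0.0492). The endogenous mouse *Fgf1* lay between 0.208 and 0.639 FPKM and was not fitted. *Frs2*, the receptor's adaptor, had 10.9 and 10.9 against 10.4 and 10.0 FPKM. Neither call of this list was kept in the 4-library fit (0.0522 for *Fgfr2* and 0.104 for *Fgf7*).

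Heparan sulfate, the co-receptor of FGF1, is carried by syndecans, glypicans and basement membrane core proteins. Of 10 fitted core proteins 1 rose and 2 fell (30.0% called, beside 6.19% of all loci), and 0 of the 3 were called with 4 libraries. *Sdc4* (syndecan-4) had 77.5 and 84.0 FPKM under HG and 123 and 115 FPKM with rFGF1WT (log2 fold change 0.55, standard error 0.07, adjusted p = 0.0290), whereas *Sdc3* (syndecan-3) had 5.30 and 5.37 against 2.98 and 3.18 FPKM (adjusted p = 0.0235) and *Gpc1* (glypican-1) 25.9 and 25.2 against 17.3 and 17.1 FPKM (adjusted p = 0.0276). Of the 13 fitted enzymes that build, sulfate or trim the chains, limma called 0, and 3 had an unadjusted p under 0.05. The polymerase *Ext1* had 28.4 and 29.0 against 25.4 and 26.2 FPKM, the N-sulfotransferase *Ndst1* 43.0 and 35.2 against 18.9 and 40.5 FPKM, and the extracellular sulfatase *Sulf2* 12.0 and 12.0 against 16.6 and 14.9 FPKM. In the RAS-ERK cascade, where all 19 members were fitted, *Gab1* was the 1 call (5.3%, beside 6.19% of all loci). This docking protein had 10.2 and 10.7 FPKM under HG and 6.63 and 6.44 FPKM with rFGF1WT (adjusted p = 0.0190, or 0.0522 with 4 libraries). *Map2k1* and *Mapk3*, kinases of the cascade, had adjusted p of 0.723 and 0.420. Message of the kinases says nothing of their phosphorylation.

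Several genes that ERK is known to induce rose. Of 11 fitted ERK-output genes outside the families below, 6 rose and 0 fell (54.5% called, beside 6.19% of all loci). Of the 11, 10 had a positive log2 fold change, and the median was 1.03 against -0.0416 for all loci. *Epha2*, an ephrin receptor, had 22.6 and 22.2 FPKM under HG and 49.9 and 49.1 FPKM with rFGF1WT (log2 fold change 1.11, standard error 0.05, adjusted p = 0.00344). *Phlda1*, a pleckstrin-homology protein that is induced by growth factors, had 14.7 and 18 FPKM under HG and 40.1 and 42.8 FPKM with rFGF1WT (adjusted p = 0.0158), and *Hmga1*, an architectural chromatin protein, had 8.36 and 8.67 against 23.6 and 20.6 FPKM (adjusted p = 0.0234). The mean FPKM of these 3 genes, and of *Plau* and *Plaur* below, rose at least 2-fold. The urokinase *Plau* (18.5 and 14.9 against 36.8 and 33.1 FPKM), its receptor *Plaur* (5.72 and 5.37 against 10.7 and 11.7 FPKM) and the prostaglandin synthase *Ptgs2* (2.87 and 3.26 against 5.73 and 5.17 FPKM) also rose (adjusted p = 0.0252, 0.0134 and 0.0306). *Epha2*, *Plaur* and *Hmga1* passed in the 4-library fit. *Tnfrsf12a*, the TWEAK receptor, had 11.6 and 17.2 against 35.7 and 31.9 FPKM, and *Lif*, a cytokine, had 3.67 and 3.77 against 2.82 and 7.52 FPKM; their adjusted p were 0.144 and 0.713.

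Of 14 fitted ETS factors 3 rose and 1 fell (28.6% called, beside 6.19% of all loci). Besides *Etv4* and *Etv5*, *Elk3* had 10.2 and 10.8 FPKM under HG and 14.6 and 15.3 FPKM with rFGF1WT (adjusted p = 0.0266, or 0.0712 with 4 libraries). *Gabpa*, which encodes the DNA-binding subunit of GA-binding protein, had 22.9 and 23.9 FPKM under HG and 10.9 and 11.1 FPKM with rFGF1WT (log2 fold change -1.02, standard error 0.05, adjusted p = 0.00575). *Ets1* had 18.2 and 7.56 against 6.14 and 6.44 FPKM and *Ets2* 19.3 and 18.9 against 17.2 and 17.7 FPKM (adjusted p = 0.301 and 0.231). The HG libraries of *Ets1* differed more than 2-fold.

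The feedback inhibitors lay on 1 side without all being called. All 6 fitted Sprouty, Spred and Sef genes had positive log2 fold changes, with a median of 0.73. Of them 1 was called (16.7%, beside 6.19% of all loci). Over all fitted loci 4588 had a positive log2 fold change and 5960 a negative one. *Spry2* had 3.93 and 3.20 FPKM under HG and 7.70 and 6.52 FPKM with rFGF1WT (log2 fold change 0.83, standard error 0.14, adjusted p = 0.0492). *Spry1*, in a locus merged with Gm43820, had 0.647 and 9.20 against 29.0 and 17.5 FPKM (adjusted p = 0.209), *Spred2* 1.38 and 1.21 against 2.45 and 2.77 FPKM (0.0708) and *Spred3* 2.10 and 2.18 against 4.46 and 4.50 FPKM (0.0655). In the 4-library fit *Spry2* was not called (adjusted p = 0.0909), whereas *Spred3* was (0.0489). *Spry4* was below the filter, with 0.0568 and 0.0590 FPKM under HG and 1.69 and 1.48 FPKM with rFGF1WT. Its treated libraries were far above its HG libraries, but no test was made at that level. The 8 fitted MAP kinase phosphatases, which switch ERK, p38 or JNK off, also all had positive log2 fold changes, with a median of 0.61, and 1 was called (12.5%). *Dusp5*, a nuclear phosphatase of ERK, had 1.34 and 1.16 FPKM under HG and 3.76 and 3.56 FPKM with rFGF1WT (log2 fold change 1.05, standard error 0.08, adjusted p = 0.0130). *Dusp6*, the cytoplasmic phosphatase of ERK, had 2.96 and 3.67 FPKM under HG and 10.4 and 9.38 FPKM with rFGF1WT (adjusted p = 0.178, or 0.0508 with 4 libraries), and its rFGF1ΔHBS libraries, which enter its error, had 9.90 and 26.3 FPKM. *Dusp4* had 1.67 and 1.34 against 3.04 and 7.01 FPKM (adjusted p = 0.138) and *Dusp1* 4.03 and 3.67 against 5.06 and 5.54 FPKM (0.115).

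The early genes of growth factor stimulation were measured 12 h into HG, after the 1 h of pretreatment. Of 12 fitted, 1 rose (8.3% called, beside 6.19% of all loci). *Maff*, a small MAF factor, had 1.35 and 1.71 FPKM under HG and 5.41 and 5.46 FPKM with rFGF1WT (log2 fold change 1.35, standard error 0.09, adjusted p = 0.0112). *Egr1* had 14.0 and 15.2 against 13.3 and 15.0 FPKM (adjusted p = 0.774) and *Fos* 1.06 and 1.39 against 0.788 and 1.71 FPKM (0.979), so both genes overlapped between groups. *Fosl1*, which encodes FRA-1, had 2.23 and 2.63 against 5.56 and 4.23 FPKM (0.0563). *Junb* was listed at 0 in 1 treated library and *Ier2* at 0 in 3 of the 4 libraries, and both are given no fold.

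**Figure D3:**
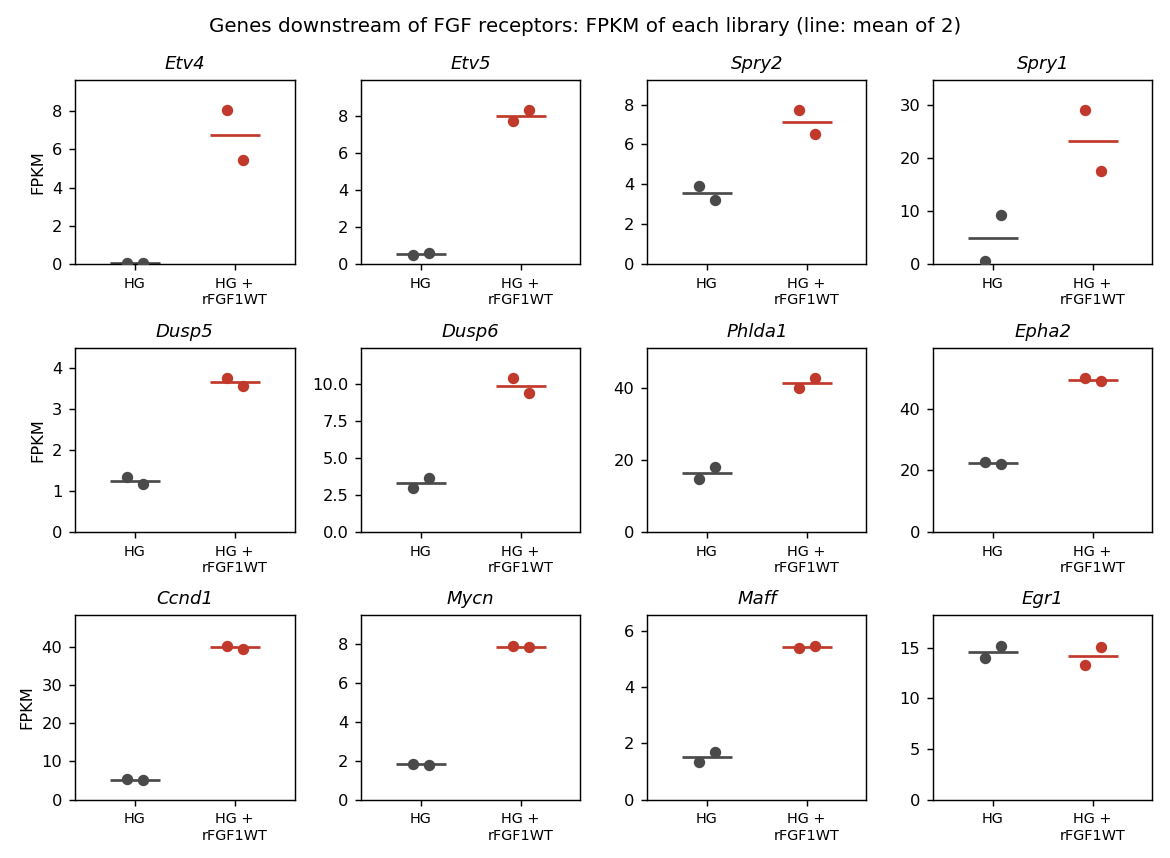
FPKM (y axis, from 0) of each HG library (grey) and each rFGF1WT library (red) for 12 genes that lie downstream of FGF receptors, with a line at the mean of the 2 libraries. All but *Egr1* have both treated libraries above both HG libraries. The groups do not overlap, in either direction, at 58.3% of all loci. *Spry1* and *Dusp6* are not called, *Spry1* with HG libraries at 0.647 and 9.20 FPKM.

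Genes of the G1 phase changed at a few members. Of 26 fitted cyclins, CDKs and their regulators 4 rose and 1, *Sertad1*, fell (19.2% called, beside 6.19% of all loci). The median log2 fold change was 0.0067. With 4 libraries *Ccnd1*, *Ccnd2* and *Cdc25a* were called. After *Ccnd1* and *Ccnd2*, *Cdc25a*, the phosphatase that activates CDK2, had 3.01 and 2.90 FPKM under HG and 5.66 and 5.67 FPKM with rFGF1WT (adjusted p = 0.0133), and *E2f4*, a repressive E2F, had 24.5 and 26.4 against 40.0 and 37.2 FPKM (adjusted p = 0.0234). *Cdk4* had 161 and 156 against 156 and 141 FPKM and *Ccne1* (cyclin E1) 7.58 and 7.37 against 9.78 and 9.73 FPKM (adjusted p = 0.411 and 0.0869). The CDK inhibitor *Cdkn1a* (p21) had 31.2 and 10.2 against 20.0 and 20.9 FPKM, with its 2 HG libraries on either side of both treated libraries. Of the genes of DNA replication and mitosis all 34 were fitted, 0 rose and 1 fell (2.9% called), with a median of -0.08. The spindle checkpoint kinase *Bub1b* had 35.7 and 34.0 FPKM under HG and 25.4 and 25.3 FPKM with rFGF1WT (adjusted p = 0.0233, or 0.0604 with 4 libraries). The proliferation marker *Mki67* had 61.4 and 61.0 against 53.4 and 59.2 FPKM and the helicase subunit *Mcm2* 42.9 and 45.7 against 43.7 and 45.8 FPKM (adjusted p = 0.342 and 0.921).

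In the MYC-MAX network 3 of 11 fitted members rose (27.3% called, beside 6.19% of all loci). Beside *Mycn*, *Myc* had 7.11 and 9.52 FPKM under HG and 15.9 and 18.8 FPKM with rFGF1WT (adjusted p = 0.0457), and *Mxd4*, a MAX partner that opposes MYC, had 2.31 and 2.42 against 4.25 and 3.99 FPKM (adjusted p = 0.0257). *Max*, the shared partner, had 4.22 and 4.98 against 5.09 and 5.57 FPKM (adjusted p = 0.333). *Myc* and *Mxd4* were not called with 4 libraries (0.101 and 0.0637). Of 20 p53 targets and regulators, all fitted, 4 rose and 0 fell (20.0% called), 18 had a positive sign and the median was 0.30. Of these 4 calls only *Ccng1* was kept with 4 libraries. *Plk2*, a stress-induced polo-like kinase, had 41.7 and 37.2 FPKM under HG and 70.6 and 74.3 FPKM with rFGF1WT (adjusted p = 0.0143). *Zmat3*, an RNA-binding zinc finger protein, had 10.4 and 10.6 against 14.9 and 14.7 FPKM (adjusted p = 0.0209) and the antioxidant sestrin *Sesn2* 10.0 and 9.89 against 14.4 and 13.2 FPKM (adjusted p = 0.0459). *Mdm2* had 23.6 and 19.9 against 30.0 and 30.4 FPKM and *Trp53* 51.7 and 51.8 against 65.1 and 57.4 FPKM (adjusted p = 0.0992 and 0.170).

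Genes that make ribosomes formed the list with the most calls. Ribosome biogenesis factors process ribosomal RNA in the nucleolus, and many are known MYC targets. All 44 were fitted, 22 rose and 0 fell (beside 3.25% and 2.94% of all loci), 40 had a positive sign, and the median log2 fold change was 0.47. *Nop2*, an rRNA methyltransferase, had 20.0 and 19.6 FPKM under HG and 35.6 and 33.6 FPKM with rFGF1WT (log2 fold change 0.78, standard error 0.05, adjusted p = 0.0112). *Mybbp1a*, a nucleolar MYB-binding protein, had 30.3 and 31.0 against 48.2 and 47.8 FPKM (adjusted p = 0.0124), and *Rrp12*, a factor of 40S export, had 6.20 and 6.43 against 12.9 and 12.1 FPKM (adjusted p = 0.0142). The libraries of these 3 genes did not overlap between groups, as at 58.3% of all loci. *Nop56* and *Nop58*, core proteins of box C/D snoRNPs, had 23.4 and 24.3 against 40.5 and 39.1 FPKM (adjusted p = 0.0143) and 9.71 and 9.68 against 14.5 and 14.6 FPKM (adjusted p = 0.0233). *Utp20*, of the small-subunit processome, had 12.1 and 12.7 against 18.8 and 18.7 FPKM (adjusted p = 0.0168), *Noc2l* 20.6 and 21.9 against 33.8 and 32.2 FPKM (adjusted p = 0.0183) and *Wdr43* 16.7 and 17.9 against 25.8 and 26.4 FPKM (adjusted p = 0.0213). *Fbl*, fibrillarin, had 9.04 and 9.81 against 12.7 and 13.1 FPKM (adjusted p = 0.0405) and *Polr1a*, the largest subunit of RNA polymerase I, 8.20 and 7.70 against 11.1 and 11.9 FPKM (adjusted p = 0.0312). *Fbl*, *Polr1a*, *Gnl3* and *Tsr1* were named after their values were seen. Summed over the list, FPKM were 719.5 and 724.2 under HG and 941.8 and 966.5 with rFGF1WT. With 4 libraries 5 of the 22 remained called, namely *Nop2*, *Mybbp1a*, *Rrp12*, *Nop56* and *Gnl3*.

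The E-box CACGTG, which MYC-MAX and other factors bind, was counted on both strands of promoters from RefSeq (GRCm38.p6), taken from 250 bases before to 50 bases after each start site. Of the 37 ribosome biogenesis genes with a promoter at hand 9 held it, and of the 19 called ones 8 did, beside 12.2% of the 7927 fitted loci with a promoter and 7.15% of all 32851 promoters. A gene or locus counted if any of its promoters held the motif, whereas the share of all promoters is per promoter. These are descriptions of letters, not of binding. The stretches of 120 bases around it are shown, 5′ to 3′ with the E-box in capitals, for 4 called genes of the list, which were chosen after their values were seen, since they carry the motif beside a called rise: *Nop2* (chr6:125131766-125131885, plus strand), *Tsr1* (chr11:74898010-74898129, plus strand), *Mybbp1a* (chr11:72441257-72441376, plus strand) and *Wdr43* (chr17:71616145-71616264, plus strand).
Nop2: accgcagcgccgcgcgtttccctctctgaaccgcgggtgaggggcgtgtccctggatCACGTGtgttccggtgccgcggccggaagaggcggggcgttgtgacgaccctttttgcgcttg
Tsr1: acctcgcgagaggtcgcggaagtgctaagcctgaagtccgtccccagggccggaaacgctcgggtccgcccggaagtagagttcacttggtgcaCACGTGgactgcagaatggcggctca
Mybbp1a: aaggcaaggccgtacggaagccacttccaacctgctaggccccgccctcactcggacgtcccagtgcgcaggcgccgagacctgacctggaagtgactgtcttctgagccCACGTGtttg
Wdr43: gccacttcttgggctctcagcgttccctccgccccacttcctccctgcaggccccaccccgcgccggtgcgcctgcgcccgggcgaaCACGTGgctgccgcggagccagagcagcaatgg
*Tsr1*, a maturation factor of the 40S subunit, had 9.60 and 8.96 FPKM under HG and 15.8 and 18.5 FPKM with rFGF1WT (adjusted p = 0.0253).

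The proteins of the finished ribosome, in contrast to the factors that build it, gave no call. Of 78 fitted cytosolic ribosomal protein genes limma called 0 at an adjusted p under 0.05 and 9 had an unadjusted p under 0.05, 32 were higher and 46 lower, and the median was -0.03. Their summed FPKM were 8009 and 7885 under HG and 8095 and 7678 with rFGF1WT. Many have near-identical pseudogenes, between which the deposited FPKM may be divided. The 76 nuclear-encoded genes of the respiratory chain and ATP synthase likewise had 0 calls in limma, with 7 at an unadjusted p under 0.05, and a median of -0.0949.

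Genes of sterol and fatty acid synthesis rose where they were called. Of 27 fitted members 9 rose and 0 fell (33.3% called, beside 6.19% of all loci), 26 had a positive sign, and the median was 0.42. Enzymes of the mevalonate pathway among the calls were *Hmgcs1* (116 and 112 FPKM under HG and 140.0 and 149 FPKM with rFGF1WT, adjusted p = 0.0411), *Mvk* (27.3 and 26.5 against 38.6 and 35.2 FPKM, adjusted p = 0.0405), *Mvd* (41.9 and 34.3 against 62.1 and 62.6 FPKM, adjusted p = 0.0484, named after its values were seen) and *Idi1* (70.4 and 68.2 against 111 and 99.5 FPKM, adjusted p = 0.0391). Later steps of cholesterol synthesis followed, with *Sqle*, squalene epoxidase, at 30.6 and 28.6 against 44.4 and 42.4 FPKM (adjusted p = 0.0213) and *Nsdhl* at 38.7 and 38.4 against 51.7 and 52.5 FPKM (adjusted p = 0.0206). Fatty acid synthase (*Fasn*) had 97.0 and 92.3 against 128 and 133 FPKM (adjusted p = 0.0432). The regulator *Insig1* had 64.9 and 18.4 against 27.6 and 91.5 FPKM, so that its libraries crossed between groups. The changes were small, at most 0.70 on the log2 scale among the calls, and 0 of the 9 calls were kept with 4 libraries. The 4-library fit called 2 other members of the list, both higher.

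In glucose handling, 29 of 33 members were fitted, 1 rose and 2 fell (10.3% called, beside 6.19% of all loci). Of these 3 calls only *Sord* was kept with 4 libraries. *Sord*, sorbitol dehydrogenase of the polyol pathway, had 22.8 and 21.9 FPKM under HG and 9.30 and 10.7 FPKM with rFGF1WT (log2 fold change -1.09, standard error 0.09, adjusted p = 0.0143), and *Pfkm*, the muscle phosphofructokinase, had 45.2 and 45.7 against 32.5 and 29.2 FPKM (adjusted p = 0.0261). The monocarboxylate carrier *Slc16a1* had 17.2 and 15.7 against 24.6 and 23.1 FPKM (adjusted p = 0.0360). *Hk2*, hexokinase 2, had 5.78 and 5.81 FPKM under HG and 17.5 and 17.7 FPKM with rFGF1WT (adjusted p = 0.0583, or 0.0180 with 4 libraries), with rFGF1ΔHBS libraries at 10.9 and 19.3 FPKM. The glucose-responsive *Txnip* had 62.2 and 66.5 against 42.0 and 49.8 FPKM (adjusted p = 0.102). Of the AMPK subunits and their kinases 1 of 11 fell (9.1% called), a call not kept with 4 libraries. *Prkaa1*, the alpha-1 catalytic subunit, had 21.3 and 21 FPKM under HG and 9.02 and 10.7 FPKM with rFGF1WT (adjusted p = 0.0171). In the hypoxia list the HIF prolyl hydroxylase *Egln1* had 8.45 and 8.46 FPKM under HG and 17.4 and 18.7 FPKM with rFGF1WT (log2 fold change 1.01, standard error 0.06, adjusted p = 0.00882), and the collagen prolyl hydroxylase *P4ha2* had 8.08 and 8.90 against 5.20 and 5.56 FPKM (adjusted p = 0.0323), while *Hif1a* had 18.7 and 18.3 against 18.5 and 17.8 FPKM in a locus merged with *Snapc1*. These calls made 16.7% of 12 fitted members, and *Egln1* but not *P4ha2* was kept with 4 libraries. Of 24 unfolded protein response and ATF4 genes 3 rose (12.5% called), and none of the 3 was kept with 4 libraries. They were *Atf4* itself (77.2 and 85.4 against 120.0 and 124 FPKM, adjusted p = 0.0306), *Phgdh* of serine synthesis (179 and 170.4 against 275 and 240.4 FPKM, adjusted p = 0.0378) and *Sesn2*. The chaperone *Hspa5* had 76.3 and 66.9 against 77.2 and 78.4 FPKM (adjusted p = 0.430). The clock repressor *Bhlhe40* had 12.0 and 10.9 against 23.8 and 22.7 FPKM (adjusted p = 0.0112), 1 call among 15 clock genes (6.7%). Among 22 autophagy and lysosome genes *Hexa*, a lysosomal hexosaminidase, fell (57.5 and 58.9 against 43.9 and 41.0 FPKM, adjusted p = 0.0261). It was the 1 call of this list (4.5%) and was not kept with 4 libraries.

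Several actin isoforms and targets of serum response factor (SRF) rose. Of 24 fitted members 7 rose and 0 fell (29.2% called, beside 6.19% of all loci), 21 had a positive sign, and the median was 0.42. *Vcl*, vinculin of focal adhesions, had 45.0 and 43.9 FPKM under HG and 80.4 and 83.6 FPKM with rFGF1WT (log2 fold change 0.87, standard error 0.05, adjusted p = 0.00642). *Fhl2*, a LIM-domain cofactor, had 31.2 and 31.2 against 48.8 and 45.9 FPKM (adjusted p = 0.0186), the tropomyosin *Tpm4* 119 and 115 against 155 and 159 FPKM (adjusted p = 0.0246), filamin A (*Flna*) 144 and 136 against 191 and 182 FPKM (adjusted p = 0.0258) and alpha-actinin-1 (*Actn1*) 23.2 and 22.9 against 29.4 and 29.8 FPKM (adjusted p = 0.0287). These are structural parts of stress fibres, and their replicates differed little. *Srf* had 12.2 and 12.6 against 13.7 and 14.3 FPKM, *Acta2* 10.8 and 12.7 against 17.6 and 16.8 FPKM and *Tagln* 16.1 and 11.6 against 27.4 and 26.4 FPKM (adjusted p = 0.428, 0.0557 and 0.111). *Vcl* and *Actg1* were called with 4 libraries.

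The CArG box, the site of SRF, was counted as the E-box was. Of the 20 genes of this list with a promoter 8 held it, and of the 6 called ones 3 did. The shares beside these were 1.43% of fitted loci with a promoter and 1.63% of all promoters. SRF targets are defined in part by such sites, so this is no independent evidence. The stretches around it are shown, with the CArG box in capitals, for these 3 genes and for *Dusp5*, whose promoter held 2 of them side by side and which was chosen after its values were seen: *Vcl* (chr14:20929148-20929267, plus strand), *Actg1* (chr11:120348521-120348640, minus strand), *Fhl2* (the second of its 2 promoters with a box, chr1:43163928-43164047, minus strand) and *Dusp5* (chr19:53529013-53529132, plus strand).
Vcl: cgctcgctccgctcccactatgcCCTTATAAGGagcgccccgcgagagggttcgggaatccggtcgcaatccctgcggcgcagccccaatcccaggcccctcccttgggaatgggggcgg
Actg1: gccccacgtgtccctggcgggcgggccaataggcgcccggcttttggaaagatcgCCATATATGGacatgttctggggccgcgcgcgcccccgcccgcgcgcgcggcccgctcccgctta
Fhl2: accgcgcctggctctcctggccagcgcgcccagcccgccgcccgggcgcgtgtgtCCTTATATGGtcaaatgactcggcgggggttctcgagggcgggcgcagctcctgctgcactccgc
Dusp5: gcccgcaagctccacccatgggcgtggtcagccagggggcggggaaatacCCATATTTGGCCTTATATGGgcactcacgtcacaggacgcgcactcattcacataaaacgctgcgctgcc
Of the 253 higher loci with a promoter 3.16% held a CArG box, and of the 243 lower loci with one 0.412% did. For the ETS motif CCGGAAG the shares were 20.2% (higher) and 10.7% (lower), beside 22.1% of fitted loci. For the E-box they were 18.6% and 13.6%. No test was made of these shares.

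Targets of YAP and TAZ, which respond to actin tension, gave 2 calls of 15 (13.3%, beside 6.19% of all loci). *Cyr61*, a matricellular protein, had 49.0 and 50.4 FPKM under HG and 110.5 and 119.7 FPKM with rFGF1WT (log2 fold change 1.19, standard error 0.06, adjusted p = 0.00642). *Ankrd1* had 34.8 and 23.5 against 63.5 and 69.9 FPKM (adjusted p = 0.0478, or 0.104 with 4 libraries). *Ctgf* had 8.68 and 15.9 against 31.9 and 40.6 FPKM (adjusted p = 0.126). *Yap1* itself had 6.91 and 18.1 against 6.94 and 18.5 FPKM, 1 of the loci whose replicates differed more than 2-fold within both groups. Of 12 fitted integrin subunits 2 rose (16.7% called), of which only *Itga3* was called with 4 libraries. *Itga3*, whose product pairs with beta-1 integrin as the laminin receptor of podocytes, had 65.1 and 64.2 FPKM under HG and 154 and 153 FPKM with rFGF1WT (log2 fold change 1.23, standard error 0.06, adjusted p = 0.00470), and *Itgb1* had 193 and 187 against 237 and 231 FPKM (adjusted p = 0.0406). Of the 11 fitted podocyte markers *Itga3*, the intermediate filament nestin (*Nes*, 43.2 and 41.8 against 78.7 and 80.9 FPKM, adjusted p = 0.00571) and the nephrin-like *Kirrel* (15.6 and 16.9 against 46.4 and 34.0 FPKM, adjusted p = 0.0484) rose (27.3% called). The treated libraries of *Kirrel* stood apart from each other, and the 4-library fit gave 0.0804. *Dag1*, dystroglycan, had 112 and 102 against 76.1 and 42.3 FPKM and *Cd2ap* 55.9 and 51.3 against 58.9 and 76.2 FPKM (adjusted p = 0.185 and 0.269).

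In the extracellular matrix, 5 of 19 fitted interstitial and matricellular genes rose and 1 fell (31.6% called, beside 6.19% of all loci). Of 12 basement membrane genes 0 rose and 2 fell (16.7% called). With 4 libraries *Spp1*, *Cyr61* and *Col8a1* were called and, of the basement membrane, *Lama1*. *Col8a1*, a short-chain collagen, had 39.2 and 39.2 FPKM under HG and 64.9 and 62.2 FPKM with rFGF1WT (adjusted p = 0.0112). Thrombospondin-1 (*Thbs1*) had 128 and 133 against 177 and 179.8 FPKM (adjusted p = 0.0244) and fibronectin (*Fn1*) 116 and 121 against 149.6 and 152 FPKM (adjusted p = 0.0440), while tenascin-C (*Tnc*) had 51.8 and 54.1 against 42.0 and 42.1 FPKM (adjusted p = 0.0432). On the basement membrane side, *Lama1*, the laminin alpha-1 chain, had 10.3 and 9.70 FPKM under HG and 5.65 and 5.70 FPKM with rFGF1WT (log2 fold change -0.72, standard error 0.08, adjusted p = 0.0232) and *Nid2*, nidogen-2, 2.49 and 2.87 against 0.736 and 1.03 FPKM (adjusted p = 0.0351). The collagen IV genes *Col4a1* and *Col4a2* had 94.0 and 112 against 101 and 100.1 FPKM and 100.4 and 106 against 83.4 and 83.8 FPKM (adjusted p = 0.898 and 0.102).

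Proteases and their inhibitors gave 5 increases and 3 decreases among 19 fitted genes (42.1% called, beside 6.19% of all loci). Of these 8 calls *Timp3*, *Plaur* and *Plat* were kept with 4 libraries. Each of the 3 called plasminogen system activators or receptors was higher, with *Plau* and *Plaur* as above and tissue plasminogen activator (*Plat*) at 14.0 and 14.0 FPKM under HG and 28.4 and 27.5 FPKM with rFGF1WT (adjusted p = 0.0194). *Mmp9*, gelatinase B, had 1.21 and 1.17 against 2.92 and 3.15 FPKM (adjusted p = 0.0250). *Mmp11* had 27.4 and 26.4 against 17.6 and 16.2 FPKM (adjusted p = 0.0253) and the membrane-bound *Mmp15* 4.95 and 5.13 against 2.59 and 2.32 FPKM (adjusted p = 0.0164), both lower along with *Timp3*. *Timp1* had 8.01 and 7.04 against 7.48 and 8.37 FPKM and *Timp2* 151 and 149 against 141 and 145 FPKM (adjusted p = 0.714 and 0.364).

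BCL2 family calls were all decreases of genes that promote cell death or mitophagy. Of 15 fitted members 0 rose and 4 fell (26.7% called, beside 6.19% of all loci), although 10 had a positive sign and the median was 0.18. After *Bmf*, *Bcl2l11*, which encodes BIM, had 5.49 and 5.05 FPKM under HG and 2.76 and 3.06 FPKM with rFGF1WT (log2 fold change -0.68, standard error 0.10, adjusted p = 0.0382), *Bad* had 13.8 and 13.5 against 9.15 and 9.71 FPKM (adjusted p = 0.0254) and *Bnip3* 10.5 and 10.5 against 7.68 and 7.15 FPKM (adjusted p = 0.0496). Only *Bmf* of these 4 was called with 4 libraries (adjusted p = 0.0199). The protective members *Bcl2l1* (BCL-XL, 11.7 and 7.88 against 16.9 and 16.3 FPKM) and *Mcl1* (16.1 and 72.5 against 87.0 and 81.0 FPKM) were not called (adjusted p = 0.104 and 0.359), the latter with HG libraries more than 4-fold apart. Of the FOXO factors and targets 1 rose and 3 fell of 17 (23.5% called), with a median of -0.31. *Ccng2*, cyclin G2, had 24.6 and 25.5 FPKM under HG and 16.9 and 17.0 FPKM with rFGF1WT (adjusted p = 0.0180), and the ubiquitin ligase *Fbxo32* 2.39 and 2.79 against 1.39 and 1.23 FPKM (adjusted p = 0.0457), next to *Bcl2l11*, which is on both lists. *Gadd45a* had 4.73 and 4.71 against 7.51 and 6.63 FPKM (adjusted p = 0.0460). *Foxo1* and *Foxo3* had 2.71 and 6.43 against 7.84 and 8.41 FPKM and 19.8 and 19.9 against 16 and 15.7 FPKM (adjusted p = 0.255 and 0.509), and 0 of the 4 calls were kept with 4 libraries. Of 27 PI3K-AKT-mTOR components 1 rose and 1 fell (7.4% called), and neither was called with 4 libraries. *Deptor*, an inhibitor of mTOR, had 4.14 and 4.19 against 2.10 and 2.38 FPKM (adjusted p = 0.0233), and *Ddit4* (REDD1), another inhibitor, had 19.5 and 16.8 against 29.5 and 27.3 FPKM (adjusted p = 0.0479). *Akt1* had 56.2 and 53.2 against 50.0 and 63.1 FPKM and *Pik3ca* 11.8 and 10.5 against 11.4 and 9.83 FPKM.

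Among other receptor tyrosine kinases, 2 of 13 rose and 3 fell (38.5% called, beside 6.19% of all loci). Of these, *Csf1r* and *Ddr1* were called with 4 libraries. *Met*, the hepatocyte growth factor receptor, had 21.8 and 22.4 FPKM under HG and 31.0 and 32.8 FPKM with rFGF1WT (adjusted p = 0.0208), and *Egfr* 17.3 and 19.0 against 24.9 and 25.5 FPKM (adjusted p = 0.0342). *Ddr1*, a collagen receptor, had 36.8 and 33.0 FPKM under HG and 16.5 and 16.4 FPKM with rFGF1WT (log2 fold change -1.04, standard error 0.12, adjusted p = 0.0233), and *Erbb3* 3.88 and 3.79 against 1.58 and 2.0 FPKM (adjusted p = 0.0312). *Csf1r*, the receptor of macrophage colony-stimulating factor, had 9.56 and 10.7 FPKM under HG and 3.21 and 3.68 FPKM with rFGF1WT (log2 fold change -1.32, standard error 0.09, adjusted p = 0.0112). *Csf1r* is also a macrophage marker, and of that list the defining *Ptprc* (CD45), *Adgre1* and *Itgam* reached at most 0.0548 FPKM. The summed FPKM of the 3 fitted members of the 9 macrophage markers were 69.6 and 73.2 under HG and 76.2 and 73.1 with rFGF1WT. Of these sums *Cd68*, called higher in a locus merged with *Eif4a1*, took 53.1 and 50.1 against 66.3 and 63.1 FPKM. Its call was not kept with 4 libraries. Whether macrophages had a part in these values was not tested. Of the Eph receptors and ephrins, *Efnb2* rose beside *Epha2* (13.4 and 14.2 against 19.8 and 20.5 FPKM, adjusted p = 0.0312). They made 15.4% of 13 fitted members, and of both only *Epha2* was called with 4 libraries. In the BMP pathway 0 of 12 rose and 2 fell (16.7% called): the receptor *Bmpr1a* had 20.1 and 19.1 FPKM under HG and 8.04 and 8.72 FPKM with rFGF1WT (log2 fold change -1.14, standard error 0.07, adjusted p = 0.00758) and the target *Id4* 3.07 and 3.16 against 0.993 and 0.848 FPKM (adjusted p = 0.0172), both also called with 4 libraries. *Id3* had 19.4 and 19.8 against 8.59 and 8.46 FPKM (adjusted p = 0.287, or 0.0227 with 4 libraries) and *Id1* 19.8 and 20.6 against 28.6 and 27.0 FPKM (0.0664). In the Wnt pathway 0 of 17 rose and 2 fell (11.8% called, beside 6.19% of all loci), the R-spondin receptor *Lgr4* (21.6 and 21.8 against 12.0 and 11.8 FPKM, adjusted p = 0.00752) and the Frizzled receptor *Fzd4* (4.05 and 4.04 against 2.34 and 2.36 FPKM, adjusted p = 0.0228), of which *Lgr4* was called with 4 libraries. The Wnt target *Axin2* had 0.552 and 0.754 against 1.23 and 1.55 FPKM (adjusted p = 0.0899). Of 21 TGF-beta pathway genes 1 rose and 0 fell (4.8% called, and 0 kept with 4 libraries). *Tgfb1* had 7.43 and 4.71 against 10.5 and 10.6 FPKM (adjusted p = 0.124).

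Inflammatory genes changed in both directions. Of 20 fitted chemokines and cytokines 3 rose and 2 fell (25.0% called, beside 6.19% of all loci). *Ccl2*, the monocyte chemoattractant, had 26.6 and 25.0 FPKM under HG and 50.6 and 46.3 FPKM with rFGF1WT (log2 fold change 0.88, standard error 0.14, adjusted p = 0.0452), *Ccl20* had 3.83 and 4.36 against 8.84 and 8.64 FPKM (adjusted p = 0.0198), and the alarmin *Il33* 0.390 and 0.572 against 2.19 and 2.52 FPKM (adjusted p = 0.0164). *Cxcl12* had 16.3 and 14.0 FPKM under HG and 8.19 and 8.46 FPKM with rFGF1WT (adjusted p = 0.0217) and *Il18* 2.23 and 2.56 against 0.877 and 1.13 FPKM (adjusted p = 0.0433). *Ccl2* was the 1 call of these 5 that held with 4 libraries (0.0481). Of 15 NF-kappaB genes *Ptgs2* rose, and the adhesion molecule *Vcam1* (6.04 and 6.20 against 4.52 and 4.32 FPKM, adjusted p = 0.0415) and the inducible nitric oxide synthase *Nos2* (4.14 and 3.58 against 2.24 and 2.01 FPKM, adjusted p = 0.0457) fell. None of these 3 calls (20.0%) was kept with 4 libraries. *Rela* had 48.2 and 41.1 against 30.3 and 32.4 FPKM and *Nfkbia* 26.1 and 28.3 against 24.0 and 24.1 FPKM (adjusted p = 0.106 and 0.211). In the complement and lipopolysaccharide list *Lbp* had 26.4 and 25.6 against 14.6 and 15.6 FPKM (adjusted p = 0.0306), the 1 call of 10 (10.0%).

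Of 37 fitted interferon genes 0 rose and 3 fell, or 8.1% called beside 6.19% of all loci, 27 had a negative sign, and the median was -0.14. Besides the *Ifi47* locus, the merged locus of *Ifit2*, *Ifit3* and *Ifit3b* had 27.4 and 24.0 FPKM under HG and 10.5 and 11.8 FPKM with rFGF1WT (adjusted p = 0.0158), and *Usp18*, a protease that removes ISG15, had 4.55 and 4.47 against 3.10 and 2.75 FPKM (adjusted p = 0.0478). Of these 3 loci that of *Ifi47* was called with 4 libraries. Over the whole list the 4-library fit called 1 member higher and 1 lower. *Irf1* had 20.0 and 18.9 against 12.0 and 12.3 FPKM (adjusted p = 0.0820). The line is grown with interferon gamma until differentiation, and all groups share that history.

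Of 23 fitted Nrf2 regulators and targets 3 rose and 0 fell (13.0% called, beside 6.19% of all loci), with a median of 0.04, and none of the 3 was called with 4 libraries. *Nfe2l2*, which encodes Nrf2, had 28.6 and 31.7 FPKM under HG and 41.2 and 42.0 FPKM with rFGF1WT (log2 fold change 0.46, standard error 0.06, adjusted p = 0.0360), glutathione reductase (*Gsr*) 40.7 and 41.1 against 52.3 and 51.2 FPKM (adjusted p = 0.0299), and *Fth1* rose as given above. Of its well-known targets, *Nqo1* lay below the filter at 0.165 and 0.172 against 0.359 and 0.291 FPKM, and *Hmox1*, *Gclc* and *Txnrd1* had 18.2 and 16.8 against 15.6 and 16.3 FPKM, 18.2 and 19.9 against 20.2 and 21.1 FPKM and 18.8 and 18.9 against 23.6 and 22.7 FPKM (adjusted p = 0.321, 0.417 and 0.0950). Of 14 enzymes that make oxidants or remove peroxide *Nos2* was the 1 call (7.1%), and it was not kept with 4 libraries. Of 11 fitted members of the ASK1-JNK-p38 module limma called 0, with 2 at an unadjusted p under 0.05: *Map3k5* (ASK1) had 9.58 and 8.49 against 8.87 and 9.07 FPKM and *Mapk8* (JNK1) 2.54 and 3.06 against 2.80 and 2.63 FPKM (adjusted p = 0.965 and 0.888).

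**Figure D4:**
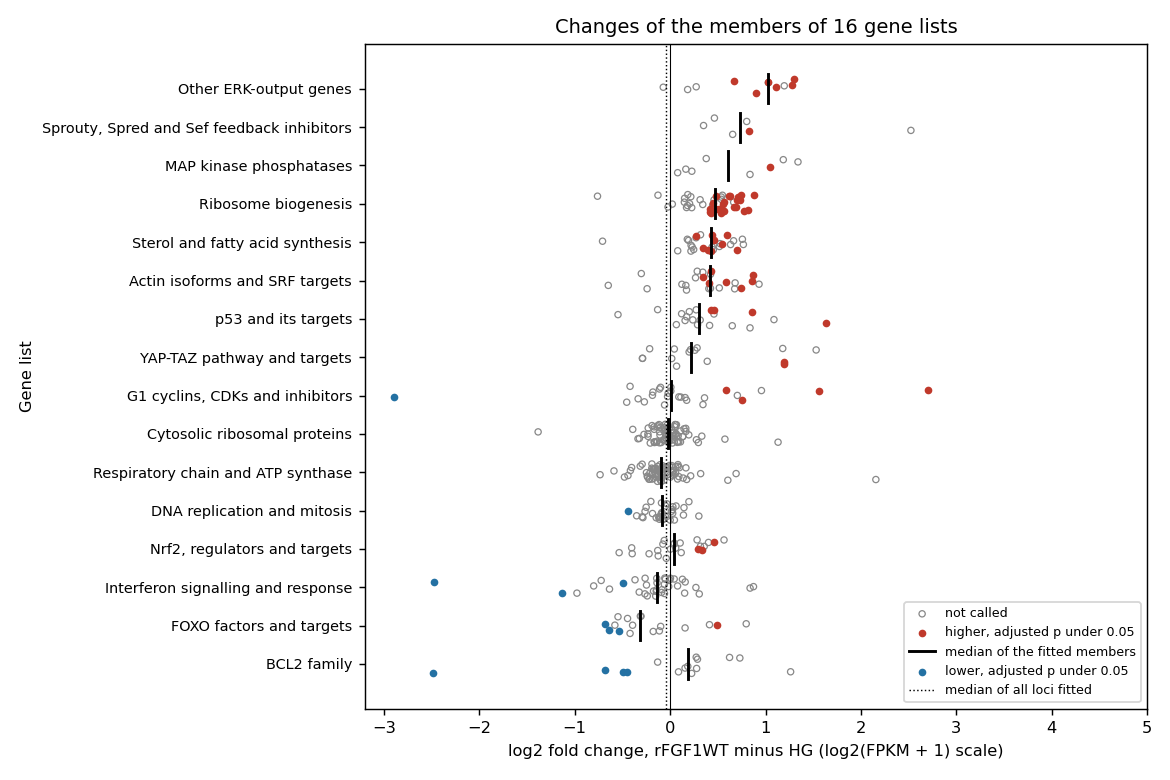
Log2 fold change between rFGF1WT and HG (x axis, log2(FPKM + 1) scale) of each fitted member of the gene lists named on the y axis, leaving out members with a library at 0. Filled points have an adjusted p under 0.05 (red higher, blue lower), open points do not; black bars are list medians, which run from 1.03 for the ERK-output genes to -0.31 for FOXO factors and targets, and the dotted line is the median of all loci.

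Across the 50 lists, 895 distinct loci were fitted and 133 were called, and 520 of the 653 called loci lay outside every list. Neighbouring lists share members, so their counts are not independent, and the lists were chosen with results of these data known.

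Both proteins were compared at the loci above in the same fit, in which 57 of 10548 loci (0.54%) differed between rFGF1ΔHBS and rFGF1WT and 631 (5.98%) between rFGF1ΔHBS and HG; all these contrasts share libraries. *Timp3* had 44.8 and 45.5 FPKM with rFGF1ΔHBS (log2 difference 2.33, adjusted p = 0.000984), close to its level in HG and far above its level with rFGF1WT. *Rbbp9* had 12.5 and 12.8 FPKM (log2 difference 1.87, adjusted p = 0.00649), between HG and rFGF1WT. *Gabpa* had 23.9 and 23.2 FPKM (log2 difference 1.03, adjusted p = 0.0104) and *Egln1* 8.69 and 9.08 FPKM (log2 difference -0.94, adjusted p = 0.0210), both near their HG values. *Mxd4* had 1.01 and 1.00 FPKM (log2 difference -1.35, adjusted p = 0.0129), below both other groups, and *Hmgcs1* 216 and 209 FPKM (log2 difference 0.55, adjusted p = 0.0486), above both. For *Etv4*, *Etv5*, *Ccnd1*, *Spp1* and *Bmf* the differences between the proteins were -0.09, 0.05, 0.03, 0.18 and 0.00 on the log2 scale, with adjusted p between 0.752 and 1.0, which does not show that the proteins act alike. *Sertad1*, at 12.0 and 12.8 FPKM, *Rpp25l*, at 1.68 and 1.02 FPKM, and *Zfp704*, at 1.33 and 1.40 FPKM, were near their HG values, but these differences did not pass (adjusted p = 0.264, 0.118 and 0.108).

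At 242 of the fitted loci at least 1 of the 4 libraries was listed at exactly 0, and these are shown apart, without a fold. Of the 214 with an annotation 193 (90.2%) were single-exon loci, against 4.39% of all fitted loci, and 31.8% of the 242 were protein-coding, against 92.8% of all fitted loci. A listed 0 can be a failed estimate. At 18 loci both rFGF1WT libraries were at 0 and both HG libraries above it, and 10 of these were called. The 5 with the highest mean were Gm15710 (95.6 and 98.0 FPKM under HG), *Sox4* (56.7 and 57.5), Gm7331 (38.7 and 34.9), Gm9794 (29.5 and 22.4) and Gm10020 (24.0 and 23.3). *Sox4*, a protein-coding single-exon transcription factor, was also listed at 0 in both rFGF1ΔHBS libraries. At 12 loci both HG libraries were at 0, and 8 were called. The 5 with the highest mean were Rps12-ps3 (518.5 and 590.6 FPKM with rFGF1WT), *H2afx* (59.6 and 55.0), Gm3608 (29.1 and 27.8), *Irf2bp1* (26.1 and 23.0) and Gm42031 (18.8 and 17.9). At 111 loci 1 library was at 0, of which 1 locus was called. Gm29216, the highest of them, had 1127 and 929.3 FPKM under HG and 914.0 and 0 with rFGF1WT, CT010467.1 had 330.4 FPKM in the first HG library and was at or nearly at 0 in the other 3, and Gm4737 had 66.5 and 67.1 under HG and 0 and 67.6 with rFGF1WT. At Gm29216 and Gm4737 1 rFGF1WT library was at 0 while the other was high. Just outside the limit of the filter, *Rac3* stayed out with a mean of 0.999 FPKM.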

How the data were processed

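RNA-seq of the MPC line covered 6 libraries in 3 groups, as poly(A) RNA sequenced from both ends. The deposited values are FPKM per locus, made by the authors before deposit; the submitters' processing notes name HISAT2 2.0, StringTie 1.3.0, Bowtie 0.12.2 and the mm8 build, without their order. FPKM hold no read counts, so no count model was fitted and the absolute depth is unknown. Positions were taken from GENCODE M21 (GRCm38) through Ensembl transcript identifiers, 99.6% of which were found, and promoters from RefSeq (GRCm38.p6). Libraries were grouped by their labels.

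Loci with a mean of at least 1 FPKM over the 4 libraries compared were tested on log2(FPKM + 1) with limma 3.58.1 in R 4.3.3, with 1 mean per group over all 6 libraries, a mean-variance trend and Benjamini-Hochberg adjustment over all 10548 loci; loci with an adjusted p under 0.05 are called. Standard errors are those of the fit. On simulated data of this comparison with 10548 loci, 60 of 100 changes of log2 size 1 and 79 of 100 of size 2 were recovered, with 9 false calls. The text names the 12 largest called changes each way, the 5 largest in FPKM each way, called list members (up to 8) and up to 4 uncalled ones that define a pathway, the highest loci at 0, and those beside the filter; some items that this rule picks are not reported here. The members and lists were chosen with earlier results of these data known. Alternatives were another pseudocount (0.1), filter (none, 5 FPKM, above 0), scaling (median ratios, quantiles), 4 libraries, robust moderation, a replicate block and leaving out each library.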

Additional observations from a re-analysis of the deposited data

How the results depend on the processing

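Of the 653 calls 0 changed direction under the 13 alternatives run. With another filter, only 4 libraries, robust moderation or a replicate block, the fold changes equal those of the main fit by construction. No direction could change there. Where the libraries of the 2 groups do not overlap, another pseudocount or leaving out 1 library cannot change it either. Median-ratio factors ran only from 0.9905 to 1.031. The count of 0 is therefore no measure of robustness. The number of calls did change. With only the 4 libraries compared, 175 loci were called (95 higher, 80 lower), 47 of them list members. Without the filter 407 were called (217 higher, 190 lower), 73 of them list members. With a filter at 5 FPKM 69 loci passed both call limits, against 107. Deviations from the group mean of HG and rFGF1WT libraries with the same replicate number had a correlation of 0.0211 over loci. This cannot show whether libraries were prepared in pairs, which the labels do not state. A replicate block left 41 calls (26 higher, 15 lower), 39 of at least 2-fold and 14 list members. Leaving out 1 library at a time gave 143 to 201 calls, 69 to 128 higher, 48 to 120 lower and 28 to 42 list members: 143 without the first HG library, 193 without the second, 179 without the first rFGF1WT library and 201 without the second, each with the spread of the remaining libraries assumed for the lone sample. The cause was not tested. Median-ratio scaling called 636 loci (391 higher, 245 lower), quantile scaling 611, robust moderation 610, a pseudocount of 0.1 659 and loci above 0 in all libraries 645. Of the 653 calls 588 were kept under median-ratio scaling, 331 without the filter and 71 to 96 when 1 library was left out. Each group held 2 libraries, and the absolute depth is unknown.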
